A study of Xenopus tropicalis with 27 samples.

Results

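The developing forebrain makes its inhibitory interneurons and other ventral neurons under the control of a small set of homeodomain transcription factors. Of these, 7 are described here in brains of Xenopus tropicalis tadpoles: dlx1, dlx2, dlx5, dlx6, lhx6, lhx8 and isl1. They were found by gene symbol, and all 7 had a row in both deposited count tables, out of 16212 genes in the table of drug-treated brains and 16049 in the table of a time course. RNA was sequenced after poly(A) selection in 27 libraries, with 3 libraries in each of 9 groups. The drug groups were tadpoles kept from stage 30 on in 10 µM β-estradiol, in 5 µM cyclopamine, or in DMSO as the control, with brains taken at stage 46 and, per the design text, pooled 3 to a library. The time course groups were untreated brains of stages 40, 42, 44, 45, 46 and 47. β-Estradiol is a steroid estrogen, and cyclopamine is a plant alkaloid that blocks Smoothened, the membrane protein that passes on the hedgehog signal. The labels name no strain, sex or clutch, and where replicate pools came from is not stated, so p-values measure the spread between these libraries, which may in part be technical.

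Interneurons arise in the ventral telencephalon (the subpallium), from progenitors in which DLX1 and DLX2 are switched on and in turn raise DLX5 and DLX6 as cells leave the cycle. In mouse, LHX6 is required in cells of the medial ganglionic eminence for their migration and for the somatostatin and parvalbumin interneuron types, LHX8 is required for cholinergic neurons of the basal forebrain, and ISL1 for striatal projection neurons. Some members are also used elsewhere: ISL1 marks motor and sensory neurons of the hindbrain and ganglia, and DLX genes pattern the pharyngeal arches. These are whole-brain samples, in which fewer cells of a type and less RNA per cell cannot be told apart.

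Levels are given as CPM, gene counts scaled to library size, with TMM factors (trimmed mean of M-values), which do not correct for gene length, so levels of different genes are not compared. A gene was called when the quasi-likelihood F-test of edgeR gave an adjusted p under 0.05, with Benjamini-Hochberg adjustment over all genes of the table. Total counts ran from 17.6 M to 28.5 M in the drug libraries and from 12.9 M to 48.3 M in the time course, and each member had at least 14 counts in each library. All 10 pan-neuronal markers checked were measured and none was at 0 in any drug library. Their summed level was 4909.9 to 7324 CPM with estradiol, 5333 to 6764 CPM with cyclopamine and 6807 to 7293 CPM in DMSO. All cyclopamine sums thus lay below all DMSO sums. With estradiol none of the 10 was called (median log2 fold change -0.22). With cyclopamine 3 of the 10 were called lower (median -0.28), against 9.59% of all genes. Whether this bears on the levels of the factors was not tested. The drug groups were more variable than the controls, with a biological coefficient of variation of 0.227 in estradiol and 0.21 in cyclopamine libraries, against 0.0897 in DMSO libraries. Estradiol replicate 3 stood apart from the other estradiol libraries: the sum of 16 cell cycle genes was 1251 CPM there and 612 and 508 CPM in estradiol replicates 1 and 2. It was 196 to 207 CPM with cyclopamine, and 382 to 471 CPM in DMSO, so the groups did not overlap.

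Both drugs lowered most of the set. Of the 7 factors, 5 fell with estradiol and the same 5 fell with cyclopamine: dlx1, dlx2, dlx5, lhx6 and isl1. The background in the estradiol comparison was 2.07% of all genes called in either direction and 0.833% called lower; in the cyclopamine comparison it was 19.6% in either direction and 9.59% lower. For all 7 factors the 3 drug libraries lay below the 3 DMSO libraries with each drug, as was so for 13.1% of all genes with estradiol and 30.2% with cyclopamine. The median log2 fold change of the 7 was -1.61 with estradiol and -1.38 with cyclopamine, against medians over all genes of 0.01 with estradiol and -0.08 with cyclopamine. Both drugs were compared with the same 3 DMSO libraries, so the comparisons are not independent of each other. The factors were chosen with earlier results of these data known, so their share over the background is a description and not a blind test.

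dlx1 and dlx2, the earliest of the DLX genes in the lineage and direct neighbours in the RefSeq gene table (no protein-coding gene starts between them), averaged 32.7% and 32.5% of the DMSO mean with estradiol and 36.4% and 38.5% with cyclopamine. In estradiol replicates 1, 2 and 3, dlx1 had 47.4, 34.1 and 26.4 CPM; in the cyclopamine replicates it had 33.4, 48.4 and 38.5 CPM; in DMSO it had 112, 91.3 and 126 CPM. Even the highest drug library held 51.9% (estradiol) or 53.0% (cyclopamine) of the lowest DMSO library. The log2 fold change of dlx1 was -1.61 ± 0.21 (SE; adjusted p = 0.00843, edgeR) with estradiol and -1.46 ± 0.21 (adjusted p = 0.00191, edgeR) with cyclopamine. dlx2 had 38.2, 26.9 and 18.6 CPM with estradiol and 27.9, 38.6 and 32.7 CPM with cyclopamine, against 87.7, 79.7 and 90.2 CPM in DMSO. The highest drug library of dlx2 held 48.5% of the lowest DMSO library. Its log2 fold changes were -1.62 ± 0.22 with estradiol (adjusted p = 0.00906, edgeR) and -1.38 ± 0.22 with cyclopamine (adjusted p = 0.00287, edgeR). The ratio of dlx1 to dlx2 within a library was 1.31 ± 0.10 with estradiol, 1.21 ± 0.04 with cyclopamine and 1.28 ± 0.13 in DMSO (SD, n = 3 each), and the libraries of the 3 groups overlapped.

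**Figure D1:**
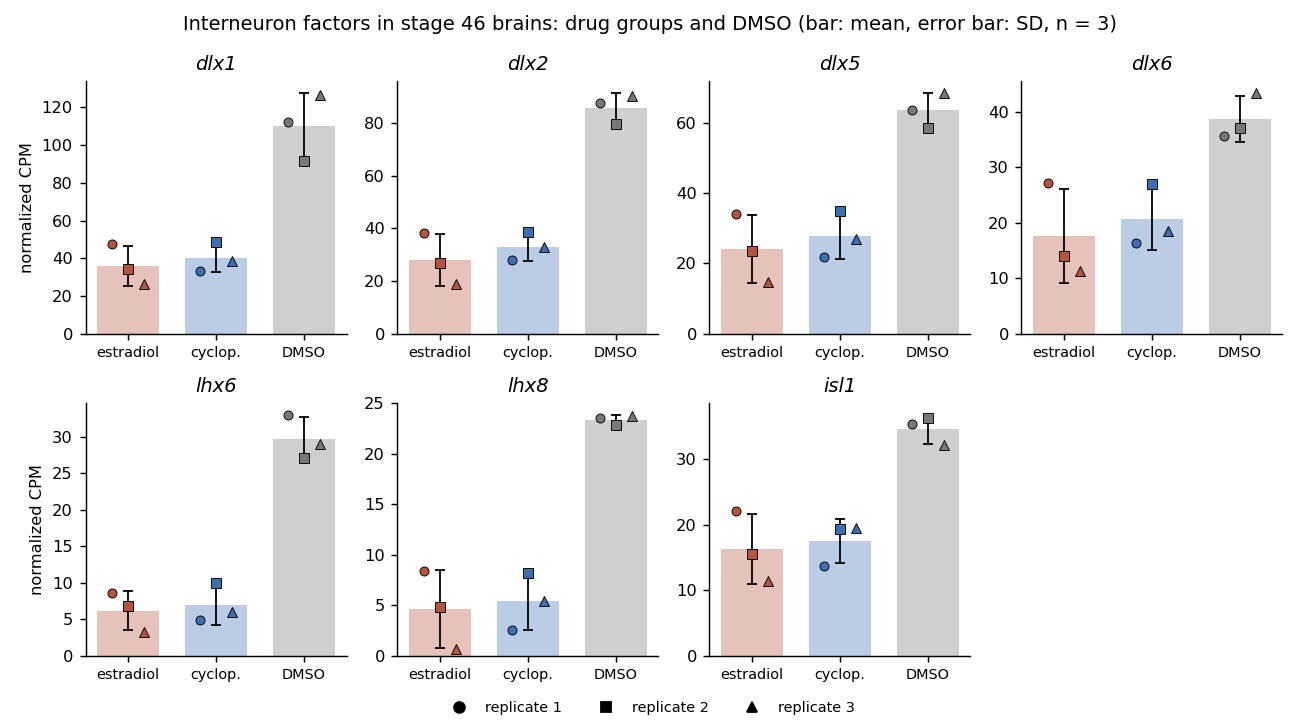
Normalized CPM (y axis, from 0) of the 7 factors in stage 46 brains kept in estradiol, cyclopamine (cyclop.) or DMSO; bars are means, error bars SD, and the 3 symbols are replicates 1, 2 and 3. In each of the 7 panels all 6 drug libraries lie below the 3 DMSO libraries, and estradiol replicate 1 is the highest estradiol library in all 7.

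dlx5 and dlx6, the other neighbouring pair and the later-acting one, had smaller fold changes, and dlx6 was not called. dlx5 had 34.0, 23.6 and 14.6 CPM with estradiol and 21.8, 34.8 and 27.0 CPM with cyclopamine, against 63.5, 58.5 and 68.4 CPM in DMSO. The drug libraries of dlx5 lay below the DMSO libraries, with estradiol replicate 3 the lowest. Its log2 fold changes were -1.40 ± 0.26 with estradiol (adjusted p = 0.0324, edgeR) and -1.19 ± 0.26 with cyclopamine (adjusted p = 0.0139, edgeR). dlx6 had 27.2, 14.1 and 11.3 CPM with estradiol and 16.4, 26.9 and 18.5 CPM with cyclopamine, against 35.6, 37.0 and 43.4 CPM in DMSO. For dlx6 the groups did not overlap, but the highest estradiol library came to 76.4% of the lowest DMSO library, and the log2 differences of -1.14 ± 0.30 with estradiol (adjusted p = 0.0775, edgeR) and -0.91 ± 0.30 with cyclopamine (adjusted p = 0.0565, edgeR) missed the threshold. The stranded kit is stated but the strand setting of the counting is not given, so reads from antisense RNA at these loci, known in mouse at Dlx1 and between Dlx5 and Dlx6, could not be told apart from those of the genes.

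lhx6 and lhx8, a related pair of LIM-homeodomain genes, had the largest fold changes of the set. lhx6 had 8.56, 6.81 and 3.19 CPM with estradiol and 4.83, 9.89 and 6.03 CPM with cyclopamine, against 32.9, 27.1 and 28.9 CPM in DMSO. The mean was 20.9% of the DMSO mean with estradiol and 23.3% with cyclopamine, and no drug library of lhx6 came above 36.5% of the lowest DMSO library. lhx6 fell by 2.26 ± 0.34 on the log2 scale with estradiol (adjusted p = 0.0133, edgeR) and by 2.11 ± 0.34 with cyclopamine (adjusted p = 0.00311, edgeR). lhx8 had 8.37, 4.82 and 0.709 CPM with estradiol and 2.53, 8.17 and 5.46 CPM with cyclopamine, against 23.6, 22.9 and 23.7 CPM in DMSO. The DMSO libraries of lhx8 were nearly equal, while the estradiol libraries were far apart, and the lowest of them rests on 14 counts. With that spread the log2 differences of lhx8, -2.33 ± 0.69 with estradiol (adjusted p = 0.112, edgeR) and -2.13 ± 0.68 with cyclopamine (adjusted p = 0.0626, edgeR), were not called, although the means were 19.8% of the DMSO mean with estradiol and 23.0% with cyclopamine.

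isl1, a LIM-homeodomain gene too, had the smallest fold changes among the called genes, with means at 47.2% of the DMSO mean with estradiol and 50.7% with cyclopamine. isl1 had 22.1, 15.5 and 11.4 CPM with estradiol and 13.7, 19.4 and 19.5 CPM with cyclopamine, against 35.4, 36.3 and 32.2 CPM in DMSO. Its highest drug library held 68.7% of its lowest DMSO library, and its log2 fold changes were -1.08 ± 0.22 with estradiol (adjusted p = 0.0363, edgeR) and -0.98 ± 0.22 with cyclopamine (adjusted p = 0.0129, edgeR). Because ISL1 is also made in sensory ganglia and in the retina, markers of both were summed. Sensory ganglion markers (7 of 8 measured) summed to 647 to 754 CPM with estradiol and 819 to 889.6 CPM with cyclopamine, against 786 to 905 CPM in DMSO. Retina and lens markers (10 of 14 measured, with gnat1 and rbp3 at 0 in a cyclopamine library) summed to 51.3 to 70.4 CPM with estradiol and 53.4 to 82.6 CPM with cyclopamine, against 73.8 to 78.0 CPM in DMSO. Gene by gene, the median log2 fold change of the retina and lens markers was -0.75 with estradiol, with none called. With cyclopamine it was -1.07, with 1 called higher and 2 lower, against 9.97% and 9.59% of all genes. That of the sensory ganglion markers was -0.06 with estradiol and 0.19 with cyclopamine, with none called. The part of these markers in the level of isl1 was not tested.

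The estradiol calls depended on the controls. Without DMSO replicate 1, 0 of the 7 were called, with 27 genes called in all; the adjusted p in edgeR was then 0.0505 for dlx1 and 0.0773 for lhx6. Without DMSO replicate 2, dlx5 and isl1 lost their calls, and without DMSO replicate 3, lhx6 did as well, which left 2 of the 7. Genes called in all were then 59 without DMSO replicate 2 and 56 without DMSO replicate 3, against 335 with all libraries. dlx6 was called with estradiol when estradiol replicate 1 was left out, and with cyclopamine when cyclopamine replicate 2 was. Each was the highest library of its group for dlx6, so leaving it out enlarges the fall. With cyclopamine, dlx1, dlx2 and lhx6 were called in each of the 6 fits that left out 1 library. The cyclopamine result of lhx8 and dlx6 depended on the method: DESeq2 and a fit of only the libraries compared called both, and limma called lhx8. Leaving out cyclopamine replicate 1 or DMSO replicate 1 took away the cyclopamine calls of dlx5 and isl1, which left 3 of the 7. Genes called in all were then 1787 without cyclopamine replicate 1 and 1127 without DMSO replicate 1, against 3171 with all libraries. Leaving out cyclopamine replicate 3 took away that of dlx5, and leaving out DMSO replicate 2 that of isl1.

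Set against each other, the drugs did not differ detectably for any of the 7 factors. None was called between estradiol and cyclopamine, against a background of 6.77% of all genes; DESeq2 and limma also called 0 of them, and 0 had an unadjusted p under 0.05 in edgeR. The libraries overlapped for all 7, while those of 24.6% of all genes did not, and the log2 differences, estradiol over cyclopamine, ran from -0.24 to -0.10. The 95% interval of the difference was -0.62 to 0.31 for dlx1, -0.72 to 0.24 for dlx2 and -0.90 to 0.60 for lhx6. For lhx8 it was -1.79 to 1.38, too wide to set a close limit. In the same libraries the hedgehog targets separated the drugs. All 4 targets measured fell with cyclopamine, none was called with estradiol, and all 4 were called higher with estradiol than with cyclopamine. gli1, the transcription factor raised by the pathway, was at 13.3, 13.3 and 22.8 CPM with estradiol and at 0.158, 0.295 and 0.190 CPM with cyclopamine, against 14.6, 13.7 and 15.1 CPM in DMSO. ptch1, the hedgehog receptor and a target itself, had a log2 fold change of -0.28 ± 0.12 with estradiol (adjusted p = 0.196, edgeR) and -1.49 ± 0.12 with cyclopamine (adjusted p = 9.17e-05, edgeR).

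**Figure D2:**
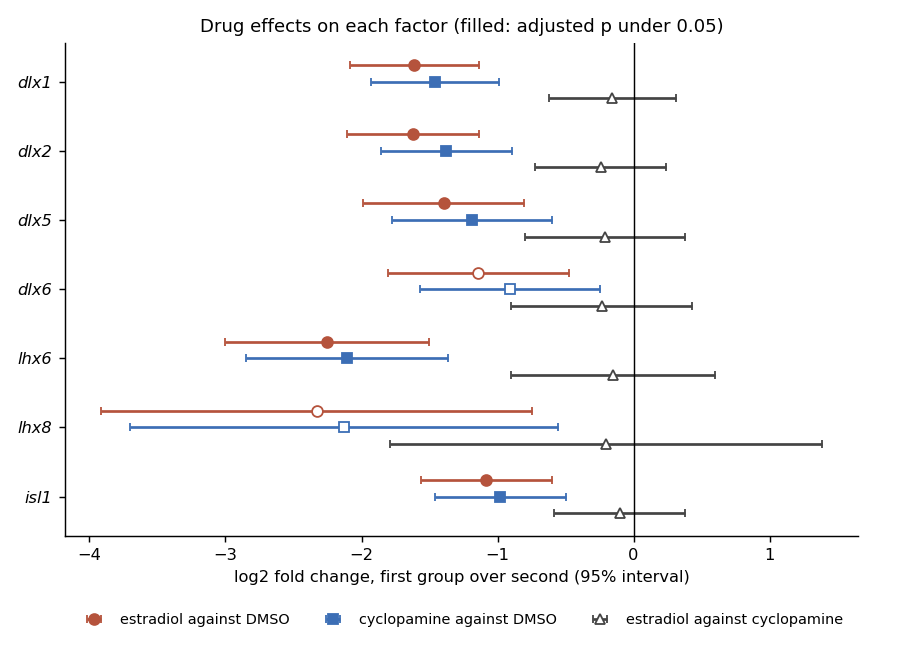
Log2 fold change (x axis, first group over second) with its 95% interval for each factor in 3 comparisons; filled symbols have an adjusted p under 0.05 in edgeR. The estradiol and cyclopamine values against DMSO all lie below 0, from -2.33 to -0.91, and every interval of estradiol against cyclopamine includes 0.

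Within a drug group the factors were high or low in the same libraries. Estradiol replicate 1 was the highest estradiol library for all 7, and replicate 3 the lowest for all 7. Cyclopamine replicate 1 was the lowest cyclopamine library for all 7 and replicate 2 the highest for 6. After subtraction of the group means, the log2 levels of the 21 pairs of factors had Pearson correlations from 0.77 to 0.99, with a median of 0.92 over the 9 libraries. The points of such a correlation share a library, its depth and its dissection. Neither the shared order nor these correlations were computed for all genes, so they are not shown to be particular to the factors. Markers of other tissues moved with the drug groups too. Skeletal muscle markers (10 of 12 measured) summed to 30.5 to 58.3 CPM with estradiol and 86.3 to 159 CPM with cyclopamine, against 20.5 to 24.7 CPM in DMSO. In untreated brains, normalized separately, the muscle sum was 39.8 to 91.3 CPM at stage 46 and 25.5 to 187 CPM at stage 44. The muscle sums with the drugs thus lay within the spread of untreated libraries. Epidermal markers (6 of 12 measured, with elf3 at 0 in a DMSO library) summed to 316 to 459 CPM with estradiol and 523 to 856 CPM with cyclopamine, against 264 to 315 CPM in DMSO. Leukocyte markers (9 of 10 measured) summed to 62.9 to 98.0 CPM with estradiol and 94.6 to 125 CPM with cyclopamine, against 35.3 to 43.9 CPM in DMSO. Melanocyte markers (all 8 measured) summed to 27.8 to 61.3 CPM with estradiol and 45.6 to 127 CPM with cyclopamine, against 23.3 to 23.7 CPM in DMSO. In untreated stage 46 brains the melanocyte sum was 23.1 to 23.9 CPM. The leukocyte sum there was 30.0 to 36.2 CPM (8 of 10 measured), and the epidermal sum 188 to 209 CPM (4 of 12 measured). Cartilage and arch markers, the tissue outside the brain where DLX genes are best known, overlapped among the groups at 176 to 359 CPM with estradiol, 211 to 426 CPM with cyclopamine and 305 to 373 CPM in DMSO (6 of 10 measured). Olfactory markers (4 of 6 measured), from another tissue with DLX5, overlapped as well, at 37.8 to 73.4 CPM with estradiol, 32.2 to 43.1 CPM with cyclopamine and 41.8 to 48.6 CPM in DMSO. Of the pancreas list 1 gene of 6 was measured, at 1.1 to 3.75 CPM over all groups. The part of any of these, or of the cell cycle sum in estradiol replicate 3, in the lower levels of the factors was not tested. Without estradiol replicate 3, 4 of the 7 were still called with estradiol, all but isl1 of the 5, with 274 genes called in all.

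Genes that work upstream of or beside the factors were next compared. Of 26 measured regulators of the ventral forebrain, 6 fell with estradiol (nkx2-1, sp9, prox1, olig2, st18 and gsx2) and 15 with cyclopamine, and none rose. The shares of all genes called lower were 0.833% with estradiol and 9.59% with cyclopamine. The median log2 fold change of the 26 was -0.26 with estradiol and -0.43 with cyclopamine. nkx2-1, which specifies the medial ganglionic eminence and the hypothalamus and switches on Lhx6 in mouse, had 14.2, 8.17 and 7.04 CPM with estradiol and 7.60, 11.6 and 9.58 CPM with cyclopamine, against 34.3, 37.4 and 37.5 CPM in DMSO. Its log2 fold changes of -1.90 ± 0.24 with estradiol (adjusted p = 0.00735, edgeR) and -1.93 ± 0.24 with cyclopamine (adjusted p = 0.000835, edgeR) came with no overlap between drug and DMSO libraries. sp9, a zinc-finger factor of striatal and interneuron precursors, fell to between 20.7 and 36.2 CPM with estradiol and between 23.8 and 33.0 CPM with cyclopamine, against 86.0 to 86.3 CPM in DMSO. vax1, a homeobox gene of the ventral forebrain, had 0.355 to 1.19 CPM with estradiol (adjusted p = 0.0517, edgeR) and fell to 0.475 to 1.53 CPM with cyclopamine (adjusted p = 0.019, edgeR), against 3.02 to 3.71 CPM in DMSO.

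gsx1, a progenitor homeobox gene, was higher with estradiol than with cyclopamine by 0.88 ± 0.18 (adjusted p = 0.02, edgeR), the 1 of the 26 regulators called between the drugs (6.77% of all genes). gsx2, the progenitor gene upstream of Dlx genes in mouse, fell with both, by 0.92 ± 0.20 with estradiol (adjusted p = 0.0484, edgeR) and 0.78 ± 0.20 with cyclopamine (adjusted p = 0.0251, edgeR). Its estradiol call is near the threshold. Calls of genes outside the 7 factors were not followed through the fits that left out a library. Without DMSO replicate 1, genes called in all with estradiol dropped from 335 to 27. The cell cycle genes were also split between the drugs: 16 of 16 were called higher with estradiol than with cyclopamine, against 4.16% of all genes. Against DMSO, 1 of the 16 was called higher with estradiol (median log2 fold change 1.01), as were 1.23% of all genes. With cyclopamine 9 were called lower (median -1.07), as were 9.59% of all genes. The part of the cell cycle genes in the lower levels of the factors was not tested.

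Few genes of the finished inhibitory neuron passed the test, which with estradiol is near the background. The counts in each list below stand against 2.07% of all genes called with estradiol, and 0.833% called lower. With cyclopamine 19.6% of all genes were called, and 9.59% called lower. Of 5 measured genes of GABA synthesis, transport and breakdown, none was called with estradiol and 1, the transporter gene slc6a13, fell with cyclopamine. gad1.1, which encodes a GABA-synthesizing enzyme, had 732, 787 and 484 CPM with estradiol and 677, 751 and 628 CPM with cyclopamine, against 869, 922 and 817 CPM in DMSO. The log2 differences of gad1.1 were -0.38 ± 0.16 with estradiol (adjusted p = 0.205, edgeR) and -0.34 ± 0.16 with cyclopamine (adjusted p = 0.156, edgeR). Those of gad2, its partner, were -0.50 ± 0.16 with estradiol (adjusted p = 0.119, edgeR) and -0.34 ± 0.16 with cyclopamine (adjusted p = 0.154, edgeR). slc32a1, the vesicular GABA transporter, had -0.31 ± 0.13 with estradiol (adjusted p = 0.211, edgeR) and -0.23 ± 0.13 with cyclopamine (adjusted p = 0.233, edgeR). All 3 were lower in each drug library than in each DMSO library, as were 13.1% of all genes with estradiol and 30.2% with cyclopamine. Falls of this size can be missed by the test, so a missing call does not show an unchanged level. GABAergic neurons of the midbrain and hindbrain express these 3 genes as well. Of 12 peptides, calcium-binding proteins and enzymes of interneuron subtypes, none was called with either drug; sst.1, a somatostatin gene and a hallmark of LHX6 lineages in mouse, had log2 differences of -0.23 ± 0.18 with estradiol (adjusted p = 0.478, edgeR) and -0.01 ± 0.18 with cyclopamine (adjusted p = 0.978, edgeR). Whether the factors differ from these genes in their response was not tested. Of 16 genes of migration and guidance, nrp2, a semaphorin receptor of migrating interneurons, fell by 0.79 ± 0.13 with estradiol (adjusted p = 0.0167, edgeR) and by 0.96 ± 0.13 with cyclopamine (adjusted p = 0.00113, edgeR), and robo1, sema3f and dcx fell with cyclopamine. Of 12 cholinergic genes and LIM partners, none was called with estradiol and isl2 rose with cyclopamine, to between 1.47 and 1.97 CPM, against 0.743 to 0.871 CPM in DMSO. In the dorsal forebrain list 6 of 16 genes fell with estradiol and 10 with cyclopamine, and in the diencephalic and hypothalamic list 3 of 13 fell with estradiol and 10 with cyclopamine.

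**Figure D3:**
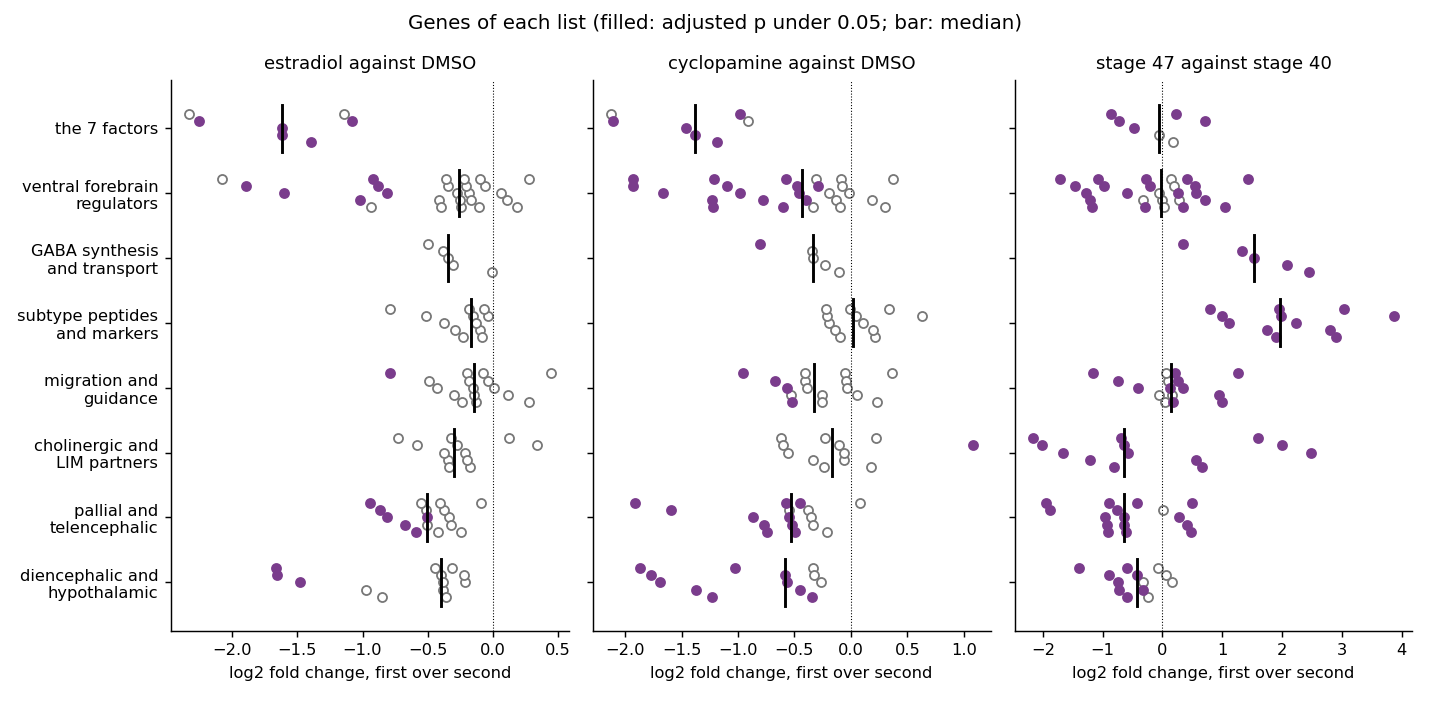
Log2 fold change (x axis) of each measured gene of 8 groups of genes in estradiol against DMSO, cyclopamine against DMSO and stage 47 against stage 40; filled points have an adjusted p under 0.05 in edgeR and the black bar is the median. With the drugs the median of the 7 factors is -1.61 (estradiol) and -1.38 (cyclopamine) and those of the other groups lie between -0.59 and 0.02. Between stages all 5 GABA genes and all 12 subtype genes are called higher, as are 40.0% of all genes. The factors and the other groups were chosen with earlier results of these data known.

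In untreated brains the set did not move as one. Between stages 40 and 47, dlx1, dlx2 and isl1 fell, lhx6 rose, and dlx5 and lhx8 were not called. At this depth most genes changed between those stages, with 80.8% of all genes called, 40.0% higher and 40.8% lower, so 5 of 7 factors called is near the background. The libraries of 4 of the 7 did not overlap between those stages, against 81.7% of all genes. dlx1 had 67.0, 69.2 and 65.7 CPM at stage 47, against 108, 147 and 114 CPM at stage 40 (log2 -0.87 ± 0.12, adjusted p = 2.92e-06, edgeR). The last step was the steepest for dlx1, and its stage 47 libraries lay below all other libraries of the course. dlx2 fell by 0.73 ± 0.11 (adjusted p = 9.39e-06, edgeR) and isl1 by 0.47 ± 0.09 (adjusted p = 3.05e-05, edgeR).

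lhx6 ran the other way. Its mean was 15.5 CPM at stage 40, 19 CPM at stage 42, 17.9 CPM at stage 44, 20.8 CPM at stage 45, 24.7 CPM at stage 46 and 24.9 CPM at stage 47. The stage 47 libraries, at 23.3 to 26.1 CPM, all lay above the stage 40 libraries, at 12.7 to 20.1 CPM, and the log2 fold change was 0.70 ± 0.13 (adjusted p = 2.13e-05, edgeR). dlx6 was called higher by 0.22 ± 0.10 (adjusted p = 0.0478, edgeR), but its libraries overlapped and the call was lost with the replicate number as a block and without stage 40 replicate 1 or 3 or any stage 47 library. dlx5 differed by 0.18 ± 0.12 (adjusted p = 0.18, edgeR) and lhx8 by -0.05 ± 0.15 (adjusted p = 0.763, edgeR), with 95% intervals of -0.07 to 0.42 for dlx5 and -0.37 to 0.27 for lhx8. dlx5 was called higher without stage 40 replicate 2, with the filter at 5 CPM and in limma.

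**Figure D4:**
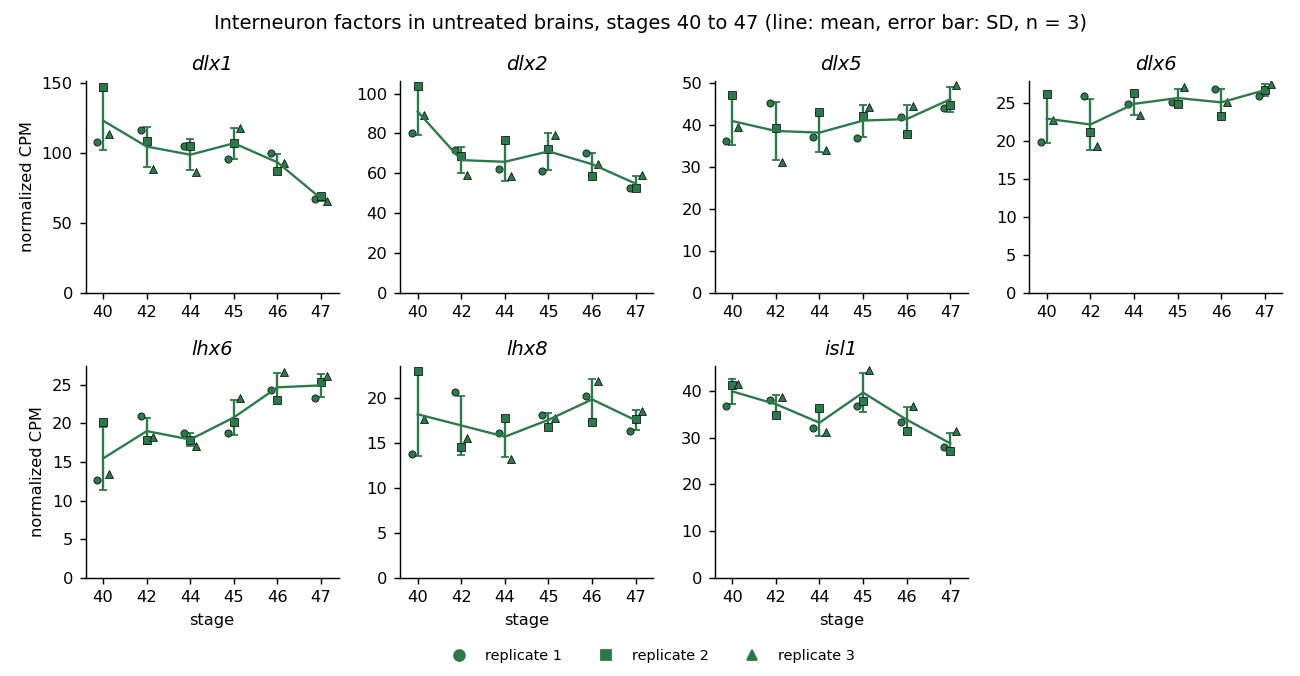
Normalized CPM (y axis, from 0) of the 7 factors at stages 40, 42, 44, 45, 46 and 47 in untreated brains (x axis, stages at equal spacing); the line joins means, error bars are SD (n = 3) and symbols are replicates. The mean of dlx1 ends lowest at stage 47, at 67.3 CPM, and that of lhx6 ends highest, at 24.9 CPM.

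From each stage to the next the changes were small. Over all 6 stages together, isl1, lhx6, dlx1 and dlx2 were called as varying, against 88.4% of all genes, and those 4 calls held in each of the 18 fits that left out 1 library. With each factor's 6 stages put in order of their means, 33 of the 35 pairs of neighbours in that order overlapped. The 2 pairs that did not were stages 46 and 47 for dlx1 and stages 40 and 45 for dlx2. Neighbours in that order have the closest means, which favours overlap, and no share over all genes was computed. Between successive stages, the libraries of dlx2 did not overlap at stage 42 against stage 40, as for 50.6% of all genes. Those of isl1 and lhx6 did not at stage 45 against stage 44 (41.0% of all genes). Those of dlx1 did not at stage 47 against stage 46 (59.6% of all genes). None was apart at stage 44 against stage 42 (20.0%) or stage 46 against stage 45 (55.1%). At stage 42 against stage 40, dlx2 fell by 0.45 ± 0.11 and lhx6 rose by 0.31 ± 0.13 (adjusted p = 0.00326 and 0.0475, edgeR; background 47.0%). The call of dlx2 held in each of the 6 fits that left out 1 library, while that of lhx6 was lost without stage 40 replicate 1 or 3 or any stage 42 library. No factor was called at stage 44 against stage 42 (background 2.32%). isl1 was called higher at stage 45 than at stage 44 (background 22.8%) and lower at stage 46 than at stage 45 (background 42.1%), both calls being lost when single libraries were left out: stage 44 replicate 1 or 3 or stage 45 replicate 2 or 3 for the first, and stage 45 replicate 2 or 3 or stage 46 replicate 1 or 2 for the second. At stage 47 against stage 46, dlx1 fell by 0.47 and isl1 by 0.24 on the log2 scale (background 48.8%), and the call of dlx1 held in each of the 6 fits that left out 1 library. That of isl1 was lost without stage 46 replicate 1 or 3 and without stage 47 replicate 1 or 2.

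With these different courses some proportions within the set changed, though only lhx6 and dlx1 of the pairs below were called in opposite directions. The ratio of lhx6 to dlx1 was 0.348, 0.367 and 0.397 at stage 47, against 0.118, 0.137 and 0.119 at stage 40. That of dlx5 to dlx1 was 0.658, 0.648 and 0.755 at stage 47, against 0.335, 0.321 and 0.347 at stage 40. The ratio of lhx6 to lhx8 was 1.42 ± 0.02 at stage 47 and 0.851 ± 0.081 at stage 40 (SD, n = 3 each). None of these 3 ratios overlapped between the stages, whereas dlx1 to dlx2 did, at 1.23 ± 0.11 at stage 47 and 1.35 ± 0.07 at stage 40. The ratio of dlx5 to dlx6 overlapped too, at 1.73 ± 0.07 at stage 47 and 1.79 ± 0.04 at stage 40. Ratios of genes outside the set were not computed, and the levels of 81.7% of all genes did not overlap between these stages. The changed ratios are thus not shown to be particular to the factors. In the drug libraries the ratio of lhx6 to dlx1 was 0.121 to 0.200 with estradiol and 0.145 to 0.204 with cyclopamine, below the 0.229 to 0.297 of DMSO. That of dlx5 to dlx1 was 0.654 to 0.720 with cyclopamine, above the 0.541 to 0.640 of DMSO, and overlapped DMSO with estradiol. That of dlx5 to dlx6 was 1.29 to 1.46 with cyclopamine, below the 1.58 to 1.78 of DMSO, and overlapped DMSO with estradiol. The ratio of lhx6 to lhx8 overlapped DMSO with both drugs. With the stage means removed, all 21 pairs of factors still had positive correlations over the 18 libraries, from 0.34 to 0.91, as a description of libraries that share depth and dissection.

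Genes of GABA signalling and of interneuron subtypes rose over the same stages. The counts in each list stand against a background of 40.0% of all genes called higher at stage 47 than at stage 40 and 40.8% called lower. All 5 GABA genes were higher at stage 47 than at stage 40, among them gad2 by 2.08 ± 0.09 and gad1.1 by 1.32 ± 0.07 on the log2 scale, and slc32a1 by 0.34 ± 0.05 (adjusted p = 1.42e-14, 7.8e-15 and 2.2e-06, edgeR). All 12 subtype genes rose, with a median of 1.97; sst.1 had 139, 130.2 and 161 CPM at stage 47, against 16.1, 24.2 and 21.3 CPM at stage 40, and calb2, the calretinin gene, rose by 3.88 ± 0.15. Of the 26 ventral regulators, 8 rose and 11 fell. The progenitor genes gsx2 (-1.72 ± 0.18) and gsx1 (-1.17 ± 0.14) were among those that fell, and so was nkx2-1 (-0.98 ± 0.16). maf and sox6, which act in maturing LHX6 cells in mouse, rose by 1.05 ± 0.08 and 0.71 ± 0.09. The 16 cell cycle genes all fell, with a median of -4.09. Of 13 cholinergic genes and LIM partners, 5 rose, among them chat (1.99 ± 0.18), the acetylcholine-synthesizing enzyme, and 8 fell.

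For most of the set the levels with the drugs lay below the range of the untreated libraries. All 6 drug libraries were below all 18 untreated libraries of stages 40 to 47 for dlx1, dlx2, lhx6, lhx8 and isl1, and not for dlx5 and dlx6. The share of all genes for which this holds was not computed, so it is not shown to be particular to the factors. The highest and the lowest stage mean differed 1.61-fold for lhx6 and 1.26-fold for lhx8, while the DMSO mean was 4.80 and 5.05 times the estradiol mean and 4.29 and 4.34 times the cyclopamine mean. The tables were normalized separately, and no test was made across them: at stage 46, dlx1 averaged 110.0 ± 17.7 CPM in DMSO and 93.3 ± 6.31 CPM untreated, and lhx6 29.7 ± 2.97 CPM in DMSO and 24.7 ± 1.81 CPM untreated (SD, n = 3 each). The means of all 7 were higher in DMSO than in untreated stage 46 brains, and the libraries of dlx2, dlx5, dlx6, lhx6 and lhx8 did not overlap. The share of all genes whose libraries are apart in this way was not computed either. dlx5 and dlx6 stood in DMSO at 63.5 ± 4.95 and 38.7 ± 4.16 CPM, and in untreated stage 46 brains at 41.5 ± 3.30 and 25.1 ± 1.78 CPM.

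The genes whose pattern was most like each factor were taken from the Pearson correlation of log2 CPM among 11704 genes in the 18 time course libraries and 11948 genes in the 9 drug libraries. Over the time course, dlx1 was nearest to emx1 (r = 0.95), nkx2-1 and tfap2c (0.93 each), and dlx2 to tbr1, fezf2 (0.92 each) and maz (0.90). dlx5 was nearest to six3, sp9 (0.88 each) and tcf7l2 (0.82), and lhx6 to znf831, ccdc85a and pde1a (0.91 each). lhx8 was nearest to b4galt3l1 (0.81), sp9 (0.72) and six6 (0.69), isl1 to fam83g (0.89), mycn (0.88) and csnk2a2 (0.87), and dlx6 to snx27 (0.85), cep112 and cmtr1 (0.82 each). Over the drug libraries dlx1, dlx2 and isl1 were nearest to another factor, and dlx5, dlx6, lhx6 and lhx8 to genes outside the set. The 3 genes most like dlx2 were dlx1, dlx5 and lhx6 (0.99 each), and those most like dlx1 were dlx2 (0.99), lhx6 and nkx2-1 (0.98 each). isl1 was nearest to dlx5, dlx2 (0.98 each) and farp1 (0.97), and dlx5 to gabbr1, dlx2 and the neuronal marker map2 (0.99 each). The genes most like lhx6 there were ss18l1, dlx2 and gabbr1 (0.99 each), and those most like lhx8 were ndst4 (0.99), ap3b2 and schip1 (0.98 each). dlx6 was nearest to scn3b (0.99), clptm1l and nog (0.98 each). These are correlations across libraries that share group, depth and dissection, over 3 or 6 groups, and are given without a test.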

How the data were processed

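For the drug libraries and for the time course the authors deposited raw gene counts, unnormalized, together with normalized tables. Judged by its values, the deposited normalized scale is log2 of CPM plus 1 after full-quantile normalization, since each drug library sums to between 998443 and 998449 on the linear scale. STAR 2.7.3 is named in the submitters' processing notes, while build, annotation, counter and strand setting of the counting are not given. Groups came from the labels. edgeR 4.0.16 (R 4.3.3) was run on each count table by itself, with TMM factors, filterByExpr, which removed no gene, a mean per group and no covariate, and its robust quasi-likelihood test; standard errors are the log2 fold change over the root of F. Alternatives were relative log expression factors, no filter, a filter at 5 CPM in 3 libraries, DESeq2 1.42.0, limma 3.58.1 on the deposited log2 values, only the libraries compared, a replicate block and leaving out each library; keeping cyclopamine replicate 1 alone was added after seeing the data. The script was tested on simulated counts. Ratios used normalized CPM; correlations used log2 CPM with a prior count of 2.

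The members and the gene lists were chosen with earlier results of these data known. Named genes were all members, up to 4 called genes per list and direction with the lowest p, gad1.1, gad2, slc32a1, nkx2-1, gli1 and ptch1, and the 3 genes most like each member; vax1, gsx2 and sst.1 fall outside that rule and were named after their values were seen. Symbols came from the files, and tandem copies were matched to a list's symbol where RefSeq gives them as its copies. dlx3 and dlx4 had no row in either table. A gene without a row may have been expressed below the level of the genes kept. Sequences were not used here, and some genes of the set and of the lists are not reported here.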

Additional observations from a re-analysis of the deposited data

How the results depend on the processing

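The drug comparisons rest on groups of 3: without single libraries, 0 to 6 factors and 27 (without DMSO replicate 1) to 1510 genes (without estradiol replicate 2) were called with estradiol, 3 to 6 factors and 1127 to 2633 genes with cyclopamine, and 0 factors and 444 to 1482 genes between the drugs. All 7 log2 fold changes against DMSO stayed below 0 under each alternative run, with each drug. For all 7 each drug library lay below each DMSO library, so leaving out a library could hardly change the sign. Those fits are therefore no check of the direction. DESeq2 called all 7 factors with each drug. Genes called in all were then 1451 with estradiol, 3777 with cyclopamine, 1782 between the drugs and 597 at stage 44 against stage 42. limma on the full-quantile values called 197 genes with estradiol. The filter at 5 CPM left 1934 genes called with cyclopamine. limma called 6 factors and 2352 genes with cyclopamine. Running without a filter gave the same fit, since no gene had been removed, and so checked nothing. Fits of only the libraries compared called 7 factors and 4682 genes with cyclopamine, where all libraries together gave 5 and 3171. They called 289 genes between the drugs and 120 at stage 44 against stage 42. Keeping cyclopamine replicate 1 alone left 3 factors and 1170 genes called with cyclopamine and 329 genes between the drugs; that library was the lowest of its group for all 7 factors, its spread is assumed to be that of the other groups, and the alternative was chosen after seeing the data. With relative log expression factors, 1763 genes were higher and 862 lower with cyclopamine, against 1616 and 1555 with TMM, and 473 and 516 between the drugs, against 675 and 422; the calls of the factors against DMSO were the same.

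Between the drugs, signs of the small differences reversed. Without estradiol replicate 3 the log2 difference was above 0 for isl1, dlx5, lhx6 and lhx8, and without cyclopamine replicate 2 for dlx1, dlx6, lhx6 and lhx8. Estradiol replicate 3 was the lowest estradiol library for all 7, and cyclopamine replicate 2 the highest cyclopamine library for 6. For those factors leaving the library out fixes an upward move of the log2 difference. Over the libraries left out the log2 difference ran from -0.38 to 0.063 for isl1, -0.54 to 0.014 for dlx5, -0.44 to 0.20 for lhx6, -0.89 to 0.26 for lhx8, -0.40 to 0.0019 for dlx1 and -0.69 to 0.0064 for dlx6. With cyclopamine replicate 1 alone, where its low levels fix an upward move, it was 0.17 for isl1, 0.066 for dlx5, 0.28 for lhx6, 0.018 for dlx6, 0.80 for lhx8 and 0.029 for dlx1. For lhx8 at stage 47 against stage 40 it was 0.032 with the 5 CPM filter, 0.0020 in limma, and from -0.18 to 0.13 over the libraries left out. Other causes were not tested.

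Without single libraries the time course gave 4 to 6 factors and 12544 to 12688 genes at stage 47 against stage 40, 4 to 5 and 13791 to 14319 for any difference, 1 to 2 and 6639 to 7296 at stage 42 against stage 40, 0 and 143 to 1176 at stage 44 against stage 42, 0 to 1 and 2552 to 3254 at stage 45 against stage 44, 0 to 1 and 5541 to 6433 at stage 46 against stage 45, and 1 to 2 and 6661 to 7224 at stage 47 against stage 46. The isl1 call at stage 45 against stage 44 became 0 with relative log expression factors; at stage 46 against stage 45 the count of factors was 0 with those factors, with the 5 CPM filter and in DESeq2, and 3 with only the libraries compared, while limma did not call isl1 and called lhx6 higher (0.30, adjusted p = 0.0399). At stage 42 against stage 40, limma and the fit of only the libraries compared called 1, and at stage 47 against stage 46 limma called 1.

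With the replicate number as a block, 4 factors were called with estradiol (dlx5 lost), 5 with cyclopamine, 0 between the drugs, 4 at stage 47 against stage 40 (dlx6 lost) and 1 at stage 42 against stage 40 (lhx6 lost), with 413, 2910, 859, 12942 and 7518 genes in all. Other block calls of the factors were as without it. Deviations of same-numbered libraries from their group means correlated from -0.33 to 0.17 (median 0.05) in the drug table and from -0.26 to 0.22 (median -0.02) in the time course. Those of differently numbered libraries ran from -0.40 to 0.44 (median -0.01) in the drug table and from -0.25 to 0.30 (median 0.01) in the time course. Whether same-numbered libraries share a clutch or batch cannot be told from these values.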
